A study of Mus musculus with 2 samples.

Results

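The subject is a set of 305 mouse protein-coding genes whose assembled 5′ ends lay 500 bases or more apart in cultures with and without RANKL. They were taken from the 6201 genes that had exactly 1 assembled row in each culture and a TPM (a level per transcript length, scaled to 1 total in every library) of at least 10 in both, so that they made up 4.92% of these genes. Bone marrow cells of WT mice were cultured with M-CSF alone (M) or, after 2 days in M-CSF, with M-CSF plus RANKL (MR), and both cultures received M-CSF at 20 ng/mL, with RANKL at 100 ng/mL in MR. The RANKL step is given as 2 days in the labels and as 3 days elsewhere in the sources, and the harvest day of these libraries is not given in the sources used here. Each condition was measured by 1 RNA-seq library of total RNA, so that no value has a replicate error, no test was made, and every difference describes these libraries. An assembled row is a locus that StringTie built from the reads of 1 library, and its 5′ end is the outermost start of all transcripts assembled there. The members were selected on these measured ends and TPM, so that their number, distances and TPM ratios are descriptions. Nfatc1 is left out.

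The start of a transcript is set by a promoter, and many mammalian genes have more than 1. Alternative promoters give transcripts with different first exons, which can change the untranslated leader alone or move the first start codon and so the amino end of the protein. In the myeloid lineage, such choices are known for receptors, phosphatases and transcription factors. M-CSF keeps macrophage precursors alive, and RANKL drives them to fuse into bone-resorbing osteoclasts.

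Sequences at both starts are shown for 6 genes, since they let a reader see how differently built the starts of 1 gene can be. In Ikbkg, Rps6ka1, Hip1 and Fis1 the annotated transcripts at the 2 ends begin translation at different codons, Furin holds a TATA box at 1 end, and Slc29a1 had the highest TPM ratio of MR to M among the 15 genes with both ends at annotated starts and a RefSeq start near each end. These genes were chosen after their values were seen. Each line holds the 100 bases before to 20 bases after the RefSeq start nearest to the assembled end (GRCm38.p6, the mm10 build), read 5′ to 3′ on the strand of the gene. Capitals mark the motifs TATAAA (the TATA box), GGAAA (the core bound by NFAT factors), GAGGAAG (an element of the kind bound by PU.1) and TGANTCA (the AP-1 element), each searched on both strands, so that TTTCC and CTTCCTC mark the reverse strand of the second and the third.
Furin, upstream end in MR, chr7:80405417-80405536, minus strand: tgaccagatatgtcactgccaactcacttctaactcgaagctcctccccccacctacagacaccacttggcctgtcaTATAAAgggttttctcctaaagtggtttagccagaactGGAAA
Furin, downstream end in M, chr7:80402793-80402912, minus strand: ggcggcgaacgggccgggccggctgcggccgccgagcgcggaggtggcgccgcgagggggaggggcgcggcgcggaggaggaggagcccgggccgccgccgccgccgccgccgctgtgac
Ikbkg, upstream end in MR, chrX:74424512-74424631, plus strand: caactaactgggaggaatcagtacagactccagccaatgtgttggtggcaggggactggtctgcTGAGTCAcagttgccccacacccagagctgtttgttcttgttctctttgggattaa
Ikbkg, downstream end in M, chrX:74429215-74429334, plus strand: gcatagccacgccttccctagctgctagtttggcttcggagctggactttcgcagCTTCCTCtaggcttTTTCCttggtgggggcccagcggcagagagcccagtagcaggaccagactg
Slc29a1, upstream end in MR, chr17:45599599-45599718, minus strand: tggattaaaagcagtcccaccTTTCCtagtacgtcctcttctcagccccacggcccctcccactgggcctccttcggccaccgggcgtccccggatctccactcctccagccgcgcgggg
Slc29a1, downstream end in M, chr17:45595511-45595630, minus strand: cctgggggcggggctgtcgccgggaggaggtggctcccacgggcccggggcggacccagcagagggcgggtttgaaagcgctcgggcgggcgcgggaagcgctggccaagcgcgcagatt
Rps6ka1, upstream end in MR, chr4:133887778-133887897, minus strand: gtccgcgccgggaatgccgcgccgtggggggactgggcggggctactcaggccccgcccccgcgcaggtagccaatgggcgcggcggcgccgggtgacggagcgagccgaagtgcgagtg
Rps6ka1, downstream end in M, chr4:133874712-133874831, minus strand: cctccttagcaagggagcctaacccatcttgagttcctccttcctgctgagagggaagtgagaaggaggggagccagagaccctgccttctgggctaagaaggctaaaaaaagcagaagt
Hip1, upstream end in MR, chr5:135545103-135545222, minus strand: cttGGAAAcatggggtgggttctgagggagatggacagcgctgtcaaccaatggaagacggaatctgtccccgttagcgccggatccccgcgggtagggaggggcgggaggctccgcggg
Hip1, downstream end in M, chr5:135489210-135489329, minus strand: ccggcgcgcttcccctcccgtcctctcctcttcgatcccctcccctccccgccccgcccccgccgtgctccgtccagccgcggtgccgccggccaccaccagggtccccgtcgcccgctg
Fis1, upstream end in M, chr5:136953175-136953294, plus strand: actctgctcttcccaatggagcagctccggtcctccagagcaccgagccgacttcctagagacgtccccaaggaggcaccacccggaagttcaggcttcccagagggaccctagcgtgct
Fis1, downstream end in MR, chr5:136961977-136962096, plus strand: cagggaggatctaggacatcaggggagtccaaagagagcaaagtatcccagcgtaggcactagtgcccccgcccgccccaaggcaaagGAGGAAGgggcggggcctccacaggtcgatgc

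The printed pairs differed in base composition. In windows of 250 bases before to 50 after the RefSeq start, Furin had 51.3% GC at the upstream start seen in MR and 82.3% at the downstream start seen in M. The ratio of observed to expected CpG, which is high in CpG island promoters, was 0.36 and 1.01 at these starts. In Rps6ka1 the order was the other way, with a CpG ratio of 0.96 at the upstream start and 0.14 at the downstream start. The upstream window of Ikbkg held no CpG at all, and its downstream window had a ratio of 0.53. Over the 15 genes with both ends at annotated starts and a window at each end, the median CpG ratio was 0.55 upstream and 0.79 downstream, and it was higher upstream in 4. Dido1, with a window at each end but its MR end 102 bases from an annotated start, is not among the 15 and had a ratio of 1.22 upstream and 0.80 downstream.

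RefSeq windows could be placed at 53 upstream and 148 downstream ends, of 185 members outside chromosome 18. A CpG ratio of at least 0.6 was found in 58.5% of the upstream windows and 82.4% of the downstream windows, against 83.1% of 3927 windows at ends of genes that did not shift and 35.8% of all 32817 RefSeq windows. TATAAA was in 5.66% of the upstream and 8.78% of the downstream windows, beside 6.62% of the windows of genes that did not shift and 13.6% of all windows. GGAAA was in 73.6% and 54.7%, beside 60.4% and 61.3%. GAGGAAG was in 11.3% and 15.5%, beside 13.8% and 13.6%, and TGANTCA was in 9.43% and 4.73%, beside 4.53% and 7.81%. None of these motifs can overlap another of the 4 by more than their shared letters at an edge, and a match is a run of letters, not a bound site.

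Both libraries carried the markers of their labels. The summed TPM of 4 macrophage markers was 4033 in M and 3203 in MR, most of it from Cd68 (2607 and 2171). The others did not move alike, with Csf1r at 697 in M and 872 in MR, Adgre1 at 681 and 148, and Mrc1 at 47.9 and 11.8. The summed TPM of 5 osteoclast markers was 116 in M and 23226 in MR, with Ocstamp and Calcr at 0 in M. The summed TPM of 6 neutrophil markers was 1262 in M and 897 in MR, and the lymphoid, erythroid and stromal sums lay between 2.11 and 18.3. What part other cells had in the ends was not tested. M held 19422 assembled rows from 3.63 Gb of aligned bases, and MR held 19922 rows from 2.98 Gb. The tables give no number of reads, and the counting error of an end or a TPM is unknown.

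Most 5′ ends fell at nearly the same place in both libraries. Of the 6201 genes, 472 (7.61%) had the 5′ end at the same base, 5355 (86.4%) had ends within 100 bases of each other, and the median distance was 14 bases. Among the members the median distance was 1574 bases, with 106 under 1000 bases, 141 from there to under 10000 bases and 58 at 10000 bases or more. The upstream end was in MR for 147 members (48.2%) and in M for 158 (51.8%). The distance of 500 bases is a cut through a continuous tail. Just inside it lay Akt1 (500 bases), Elmo1 (503 bases) and E2f1 (505 bases), and just outside it lay Lrp12 (498 bases) and Pla2g7 (497 bases).

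**Figure D1:**
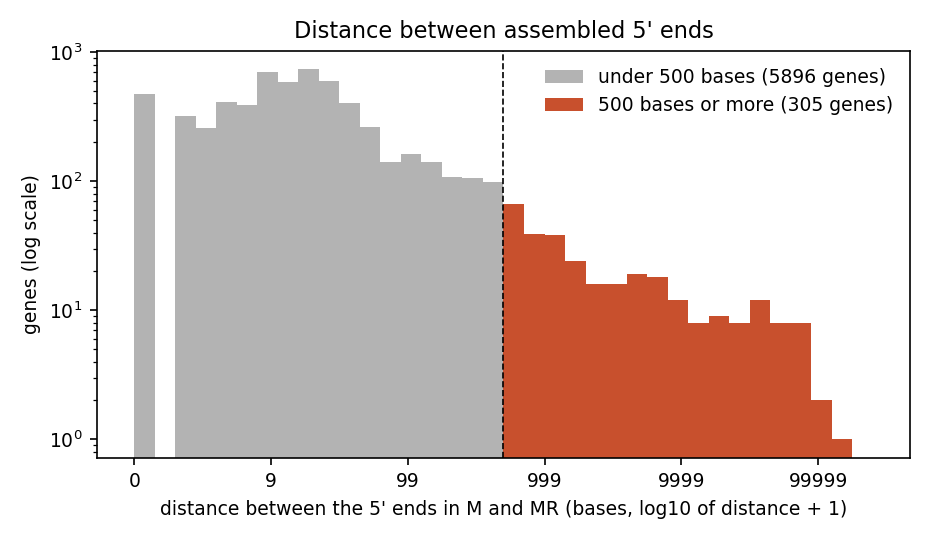
Histogram of the distance in bases between the 5′ ends in M and MR (x axis, log10 of distance + 1) over the 6201 genes, with the number of genes on a log y axis. The dashed line marks 500 bases, and the 305 genes to its right form the tail of a distribution whose median is 14 bases.

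The annotated transcript starts of GENCODE vM21 were not used to choose the members. Of the members' 610 ends, 313 (51.3%) lay within 100 bases of an annotated start of their gene, 157 (51.5%) of the M ends and 156 (51.1%) of the MR ends. For the 5896 genes that did not shift, these shares were 90.7% in M and 90.0% in MR. Both ends lay at annotated starts in 60 members (19.7%), beside 84.2% of all 6201 genes. The ends of a member lie too far apart to match the same annotated start, whereas those of a gene that did not shift can. The distance rule thus bears on this share and on the shares of ends above. Nothing about the members is read from their contrast with other genes. Windows of 100 bases around annotated starts covered a median of 2.46% of the members' annotated gene length. This is not a chance level for the matches, since 207 upstream ends and 49 downstream ends lay upstream of the annotated gene.

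The downstream end carried most of these matches. It lay within 100 bases of an annotated start in 214 members (70.2%), whereas the upstream end did so in 99 (32.5%). In 154 members (50.5%) the downstream end alone was at a start, in 39 (12.8%) the upstream end alone, and in 52 (17.0%) neither was. At loci with a single row, a downstream start that is used inside a longer row cannot be seen, so that an upstream end in 1 library does not show that the downstream start was silent there.

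**Figure D2:**
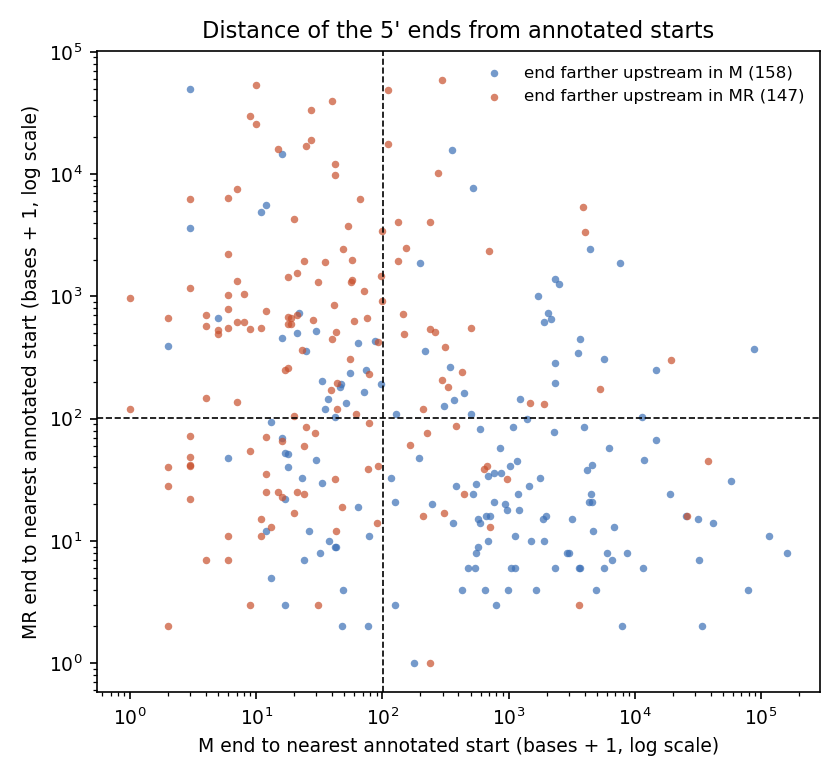
Distance from the nearest annotated start to the M end (x axis) and to the MR end (y axis) for the 305 members, in bases + 1 on log axes, coloured by the library with the upstream end. The dashed lines mark 100 bases: the 60 genes in the lower left have both ends at annotated starts, and the 52 in the upper right have neither.

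In the 60 genes with both ends at annotated starts, RNA in each library reached a start that the annotation already holds. The upstream end was in MR for 36 and in M for 24, and the distance had a median of 1415.5 bases. The longest was that of Sesn1, a stress-induced regulator of growth signalling, at 77468 bases. The 3′ ends lay within 100 bases of each other in 227 of all 305 members (74.4%), beside 78.4% of the genes that did not shift. Among the 60 they did so in 54 (90.0%). No row of these genes covered another gene by 50% or more. In 7 of them (Ikbkg, Kansl1, Mea1, Myd88, Psen2, Tbxas1 and Zbtb7b) another row of the other library, on the opposite strand, lay over the upstream end, and the library kit does not mark the strand of unspliced reads. Fis1 had a row without strand over its exons in MR.

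**Figure D3:**
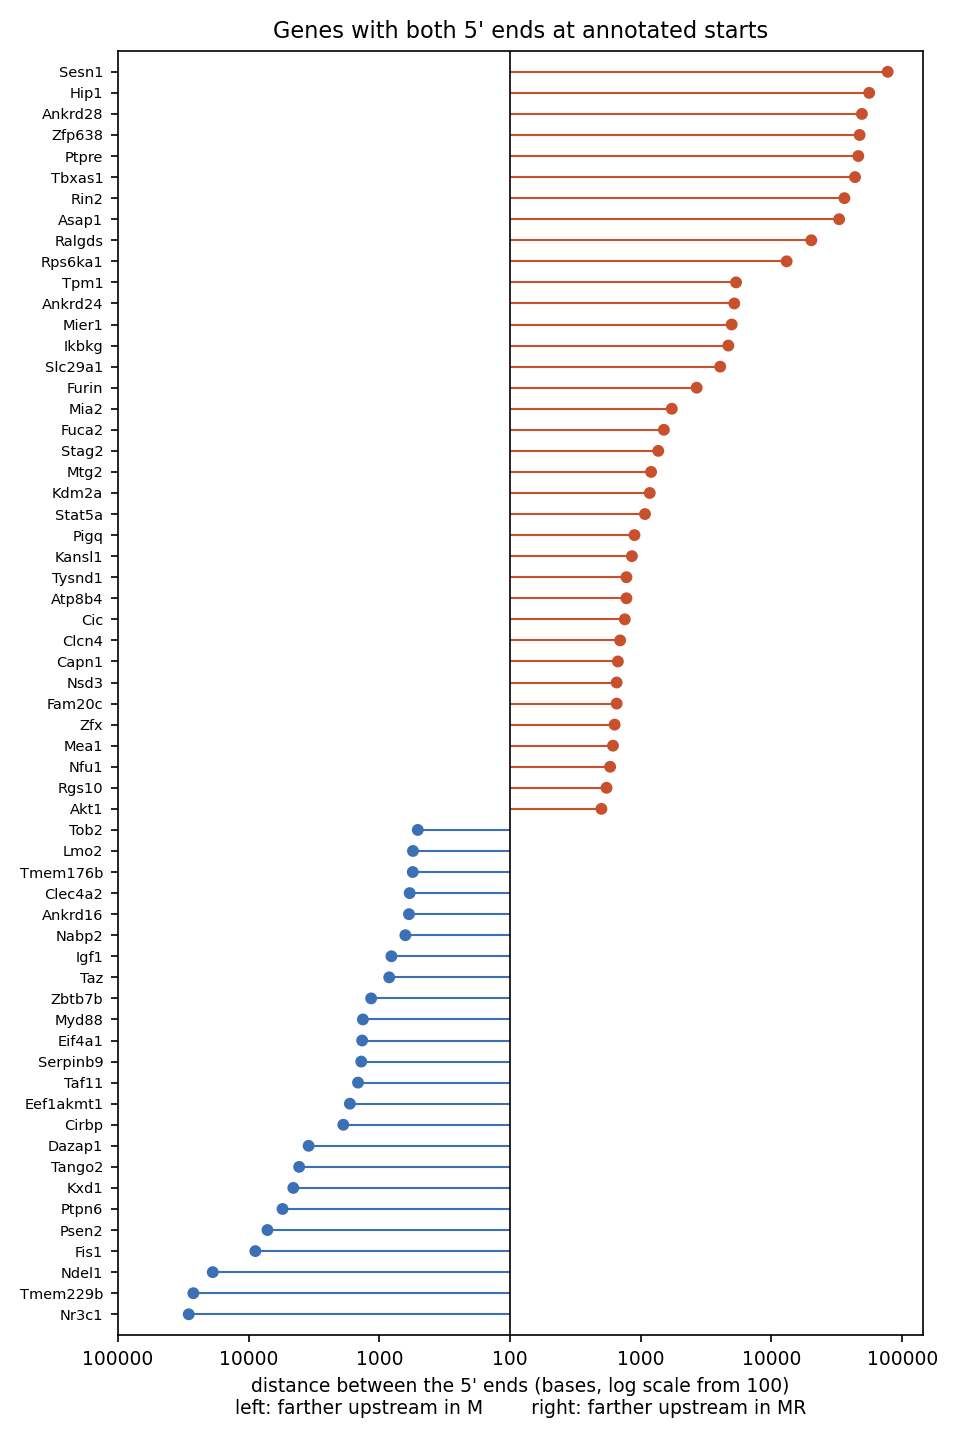
Distance in bases between the 5′ ends of each of the 60 genes with both ends at annotated starts (x axis, log scale from 100 bases), with genes ordered by signed distance on the y axis. Points to the right (36 genes) have the upstream end in MR and points to the left (24 genes) in M, and Sesn1 and Nr3c1 lie farthest out on either side.

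The genes below are the 20 of these 60 with the highest lower TPM of both libraries, grouped by role and with mm10 positions. Among regulators of signalling, Ptpn6 encodes the phosphatase SHP-1, which dampens receptor signals in blood cells. On the minus strand of chromosome 6 its row began at 124738648 in M, 23 bases from an annotated start, and at 124733148 in MR, 6 bases from another, 5500 bases downstream. Its TPM was 575 in M and 388 in MR. Myd88 encodes the adaptor of Toll-like and interleukin-1 receptors and began at 119341369 on the minus strand of chromosome 9 in M and at 119340033 in MR, 42 and 8 bases from annotated starts. Its TPM was 128 in M and 67.0 in MR. Both genes thus reached farther upstream in M and had the lower TPM in MR.

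Akt1, a kinase of the phosphoinositide pathway, reached 500 bases farther upstream in MR, from 112674300 in M to 112674800 in MR on the minus strand of chromosome 12. The ends were 24 and 84 bases from annotated starts, and the TPM was 141 in M and 185 in MR. Rgs10 encodes a regulator of G protein signalling. On the minus strand of chromosome 7 it began at 128418171 in M and 128418718 in MR, 2 and 40 bases from annotated starts, with 114 TPM in M and 257 TPM in MR. Rin2, an effector of Ras and an activator of Rab5, had ends 36127 bases apart on the plus strand of chromosome 2, at 145822279 in M and 145786152 in MR, each 10 bases from an annotated start. Its TPM was 94.4 in M and 55.8 in MR, so that the longer row in MR came with the lower level, unlike in Akt1 and Rgs10. Clec4a2, a lectin receptor of myeloid cells, began 586 bases farther upstream in M, at 123122683 on the plus strand of chromosome 6 against 123123269 in MR, 5 and 47 bases from annotated starts. Its TPM was 65.0 in M and 270 in MR, the highest ratio among the 20 genes. Psen2, a catalytic subunit of gamma-secretase, began at 180263469 on the minus strand of chromosome 1 in M and at 180256293 in MR, 31 and 7 bases from annotated starts. Its TPM was 99.5 in M and 64.3 in MR.

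Tpm1 encodes tropomyosin, which lies along actin filaments. On the minus strand of chromosome 9 it began at 67043942 in M, 20 bases from an annotated start, and at 67049299 in MR, 24 bases from another and 5357 bases farther upstream. Its TPM was 58.1 in M and 186 in MR. The longest coding transcript annotated at the MR end, Tpm1-202, has 326 codons and that at the M end, Tpm1-212, has 248. Other protein-coding transcripts also begin at each end, and their lengths were not compared. Capn1, a calcium-dependent protease, began at 6015180 in M and 6015848 in MR on the minus strand of chromosome 19, each 23 bases from an annotated start, and had a TPM of 58.9 and 42.7. Its longest annotated coding transcripts at both ends share their start codon and have 713 codons.

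Among genes of RNA and transcription, Eif4a1 encodes an RNA helicase of translation initiation and had the highest TPM of the 60 in both libraries. It began at 69672329 on the minus strand of chromosome 11 in M and 1353 bases downstream at 69670976 in MR, 12 and 93 bases from annotated starts, with a TPM of 596 and 732. The only transcript annotated at its MR end is not coding. Dazap1, an RNA-binding protein, began at 80261497 on the plus strand of chromosome 10 in M and at 80264973 in MR, each 11 bases from an annotated start, with a TPM of 67.6 and 96.4. Cic, a transcriptional repressor, began at 25268428 on the plus strand of chromosome 7 in M and at 25267673 in MR, 41 and 31 bases from annotated starts, with a TPM of 88.3 and 70.2. Zbtb7b, a zinc finger transcription factor, began at 89394801 on the minus strand of chromosome 3 in M and at 89393646 in MR, 25 and 11 bases from annotated starts, with a TPM of 60.7 and 42.3. Nabp2, a protein that binds single-stranded DNA, began at 128410488 on the minus strand of chromosome 10 in M and at 128409856 in MR, 63 and 18 bases from annotated starts, with a TPM of 52.6 and 45.9. In these 5 genes the TPM differed by a log2 ratio under 1 in size between M and MR. The coverage listed for Dazap1 differed more, from 21.7 in M to 126 in MR, and its log2 ratio per aligned Gb was 2.63.

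Among genes of mitochondria and of protein and membrane traffic, Fis1, which takes part in mitochondrial fission, began at 136953199 on the plus strand of chromosome 5 in M and at 136962078 in MR, 8879 bases downstream. The ends were 76 bases and 1 base from annotated starts, and the TPM was 225 in M and 129 in MR, whereas the listed coverage was 152 in M and 171 in MR. Nfu1, an iron-sulfur cluster protein, began at 87009872 in M and at 87009289 in MR on the plus strand of chromosome 6, 8 and 53 bases from annotated starts, with a TPM of 94.7 and 133. Mia2, a protein of cargo export from the endoplasmic reticulum, began at 59131458 in M and at 59129730 in MR on the plus strand of chromosome 12, 5 and 10 bases from annotated starts, with a TPM of 93.0 and 79.9. Kxd1, a subunit of a complex that positions lysosomes, was upstream in M, at 70527705 against 70523153 in MR on the minus strand of chromosome 8, 78 and 10 bases from annotated starts, with a TPM of 42.7 and 67.1. Fuca2, a fucosidase, began at 13501069 in M and at 13499566 in MR on the plus strand of chromosome 10, 15 and 22 bases from annotated starts, with a TPM of 121 and 105 and a coverage of 193 and 65.1. Mea1 began at 46681082 in M and at 46680469 in MR on the plus strand of chromosome 17, 42 and 11 bases from annotated starts, with a TPM of 86.2 and 66.7.

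The annotation was also read for the first codon. In 32 of the 60 genes at least 1 start codon is shared by coding transcripts of both ends, in 17 the start codons differ, and in 11 no coding transcript with a complete start is annotated at 1 or both ends. Where several coding transcripts begin at an end, the longest with known start and stop codons stands for it. Such transcripts can also differ in other exons, so that their lengths do not depend on the start alone. Among the 17, 10 have coding transcripts of known length at both ends, of which the upstream one is longer in 7 and the downstream one in 3. The first are Tpm1, Sesn1, Ptpre, Mier1, Rps6ka1, Ikbkg and Ptpn6, and the second are Ralgds, Mia2 and Fis1.

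Several of these genes belong to families known for such choices, and those in the next 3 paragraphs were named after their values were seen. Ptpre encodes a tyrosine phosphatase with a receptor form and a cytosolic form. Its row began 46148 bases farther upstream in MR, and the transcripts annotated at the ends have 699 codons at the MR end and 642 at the M end. The TPM was 36.8 in M and 33.7 in MR, so that the gene level differed little. Rps6ka1, the ribosomal S6 kinase RSK1, began 13064 bases farther upstream in MR, with 735 codons at that end and 719 at the M end, and 71.2 TPM in M and 36.7 TPM in MR. Sesn1 has 551 codons at the MR end and 492 at the M end.

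Ikbkg encodes NEMO, the regulatory subunit of the IκB kinase that RANK signalling uses to activate NF-κB. Its row began at 74429307 in M, 8 bases from an annotated start, and at 74424631 in MR, 2 bases from another. The longest annotated coding transcripts have 430 codons at the MR end and 424 at the M end, and the TPM was 21.2 in M and 62.9 in MR. Slc29a1 encodes an equilibrative nucleoside transporter and began 4053 bases farther upstream in MR, with 29.9 TPM in M and 125 TPM in MR. Its transcripts share their start codon across the ends. Furin, a protease that cuts proproteins, began 2678 bases farther upstream in MR at the start preceded by the TATAAA shown above, with 38.8 TPM in M and 63.1 TPM in MR. Both Furin starts lead to the same start codon and 793 codons, so that the annotated difference lies in the leader. In these 3 genes the MR culture had both the upstream end and the higher TPM.

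Other genes had a far upstream end in MR with a lower level there. Hip1, an adaptor of clathrin coats, had 78.8 TPM in M and 13.7 TPM in MR with ends 55900 bases apart. Tbxas1, thromboxane synthase, had 65.8 TPM in M and 27.8 TPM in MR with ends 43563 bases apart. By contrast, Nr3c1, the glucocorticoid receptor gene with its alternative untranslated first exons, was upstream in M by 28714 bases, had 31.2 TPM in M and 22.5 TPM in MR, and shares its start codon across the ends.

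**Figure D4:**
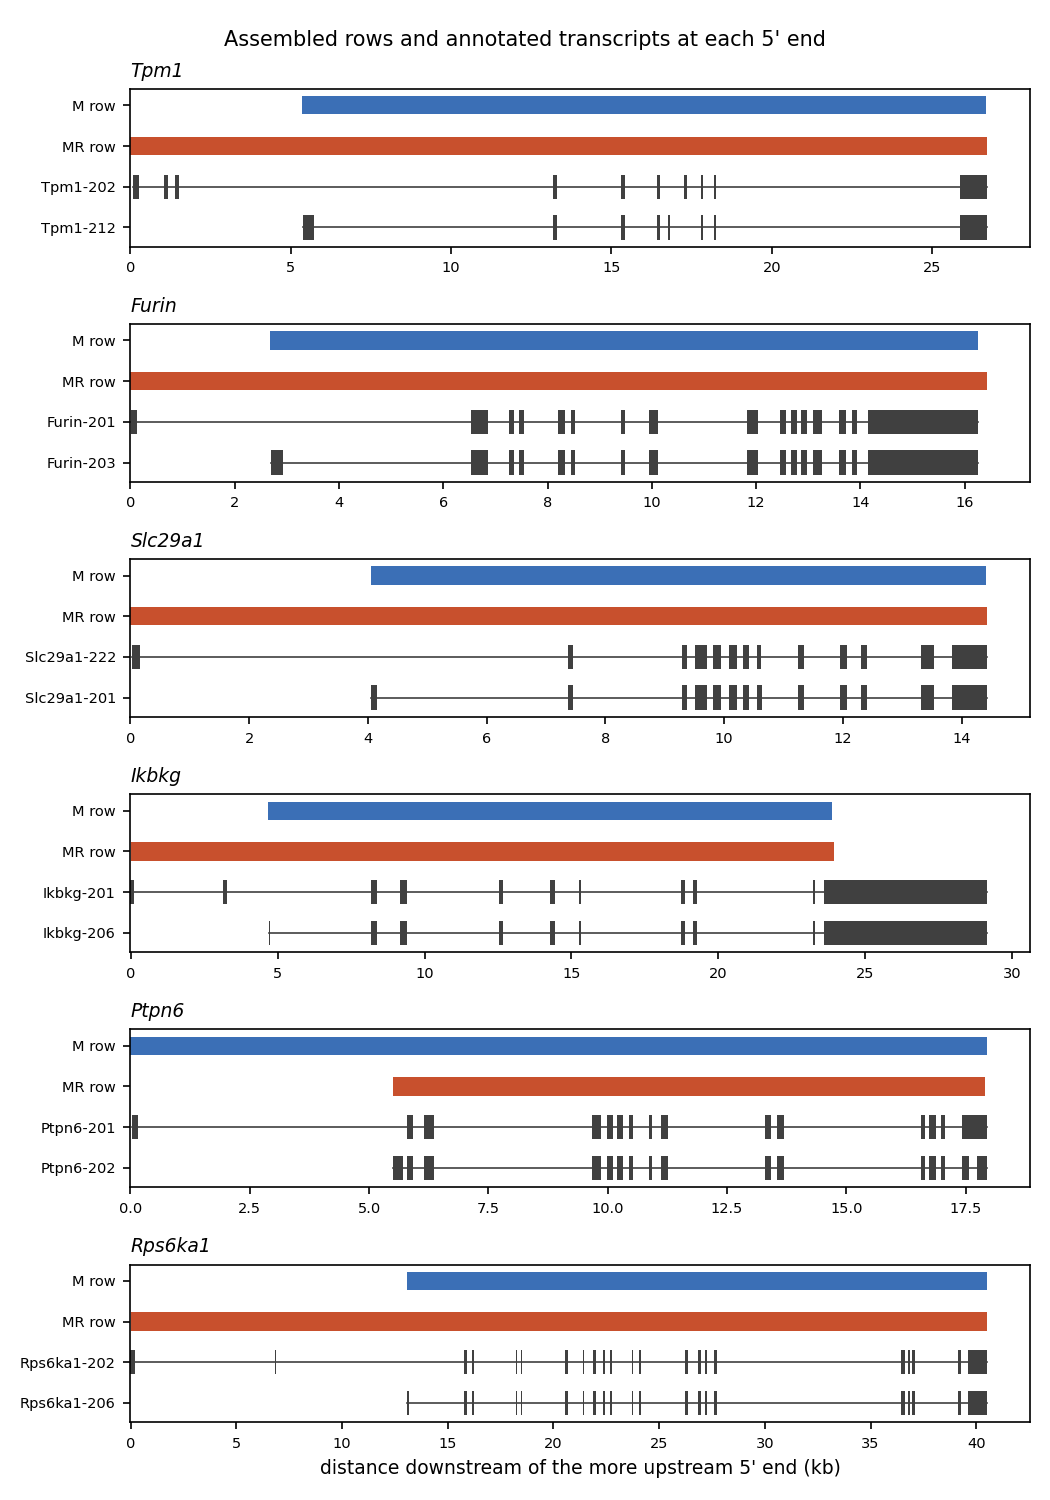
Assembled rows in M (blue) and MR (red) for 6 genes, above 1 annotated coding transcript starting at each end, with exons as dark boxes. The x axis is the distance in kb downstream of the more upstream 5′ end. In Tpm1, Furin, Slc29a1, Ikbkg and Rps6ka1 the MR row begins at the first exon of the upstream transcript and the M row at that of the downstream transcript, and in Ptpn6 it is the reverse.

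Of all 305 members, 176 (57.7%), none of them among the 60, had an upstream end over 100 bases from every annotated start of the gene and beyond its annotated limit. These ends were in M for 98 and in MR for 78, lay a median of 1484.5 bases beyond the gene and reached 10000 bases or more in 29. Of these, 114 lay in no annotated gene, 40 in a gene on the opposite strand and 22 in a gene on the same strand, and 12 lay within 100 bases of a start of any gene on that strand. The extents alone do not show whether such an end is the start of a transcript. A row covered 50% or more of another gene in 18 members (5.90%), beside 2.34% of the genes that did not shift.

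Among the largest distances, 3 were of this kind with the upstream end in M. Bcl2l11 encodes the death-promoting protein Bim. Its M row reached 116693 bases beyond the annotated gene, its MR row began 10 bases from an annotated start, and its TPM was 13.8 in M and 41.8 in MR. Sp140, a nuclear body protein of immune cells, had ends 89383 bases apart and 145 TPM in M and 60.7 TPM in MR. Osbpl9, a lipid transfer protein, had ends 78634 bases apart and 66.9 TPM in M and 137 TPM in MR. In each of the 3 the M row ran far past the annotated gene, whereas the TPM of the row was higher in MR for Bcl2l11 and Osbpl9 and in M for Sp140. The M end lay in a gene on the same strand for Bcl2l11 and Sp140 and on the opposite strand for Osbpl9. The TPM of M and MR thus belongs to rows of different extent. In coverage per aligned Gb, Sp140 was higher in MR, with a log2 ratio of 2.20.

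Transcription factor and osteoclast genes were read from lists. Of 35 osteoclast genes that met the conditions on rows and TPM, 1 (2.86%) was a member, and of 22 macrophage genes none was. Of 43 transcription factor genes 4 (9.30%) were members, Nfkb2, Junb, Elf4 and Stat5a, beside 4.92% of all genes. Nfkb2, the NF-κB subunit of the alternative pathway that RANKL uses, reached 997 bases farther upstream in MR, to 717 bases from the nearest annotated start. That MR end lay beyond the annotated gene, in a gene on the opposite strand. The TPM of Nfkb2 was 36.5 in M and 136 in MR. Junb, an AP-1 subunit, began 2341 bases farther upstream in M, beyond the annotated gene, and 5 bases from an annotated start in MR, with 111 TPM in M and 309 TPM in MR. Elf4, an ETS factor, had ends 9142 bases apart with neither at an annotated start, and 43.9 TPM in M and 34.8 TPM in MR. Stat5a, which carries cytokine signals, had both ends at annotated starts, 3 bases away in M and 6 in MR and 1077 bases apart, and a TPM of 13.8 and 11.9. Nfkb2 is also the osteoclast list's member, and of the 4 genes Stat5a alone had both ends at annotated starts.

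The TPM of the members was not one-sided. The log2 ratio of MR to M (TPM + 1) had a median of 0.04 over the 305 members and 0.14 over all 6201 genes. It was above 1 in 44 members (14.4%) and below -1 in 44 (14.4%), beside 11.4% and 8.9% of the 6201 genes. The rule used the TPM of the same libraries, so that nothing is read from these shares. The members' median was -0.01 in FPKM and -0.12 after median-of-ratios scaling, which moves every log2 ratio by 0.16, and the counts past 1 and -1 were then 36 and 56. This scaling moves all 6201 genes alike, and they were not counted under it, so that these counts have no share beside them. The upstream end lay in the library with the higher TPM in 175 members (57.4%) and, among the 60 with both ends at annotated starts, in 31 (51.7%). Members with the upstream end in MR had a median log2 ratio of 0.17, and those with it in M of -0.14.

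**Figure D5:**
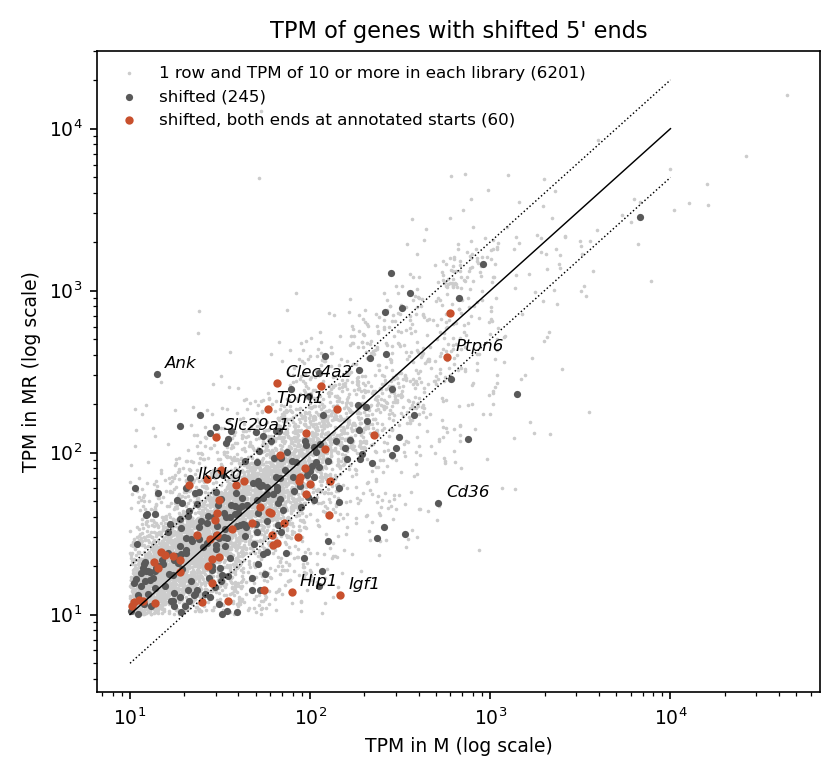
TPM in M (x axis) and MR (y axis), both on log scales, for the 6201 genes (light grey), the 245 members with at most 1 end at an annotated start (dark grey) and the 60 with both (red). The solid line marks equal TPM and the dotted lines a log2 ratio of 1 and -1 without pseudocount. Members lie on both sides of the solid line, from Igf1 and Cd36 below to Ank above.

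The 5 members highest in MR relative to M, by TPM, had at least 1 end over 100 bases from the annotated starts. Ank, which carries pyrophosphate and citrate out of cells, had 14.1 TPM in M and 305 TPM in MR (log2 ratio 4.34), and its MR row reached 1251 bases farther upstream. Slc39a13, a zinc transporter, had a TPM of 18.9 and 146 (log2 ratio 2.89), with the upstream end in M. Git1, a regulator of Arf proteins and focal adhesions, had a TPM of 24.5 and 172 (log2 ratio 2.76), but a log2 ratio of 1.10 in coverage per aligned Gb. Smurf1, a ubiquitin ligase of BMP signalling, had 10.6 and 60.1 TPM (log2 ratio 2.39), and Tbc1d2b, a Rab regulator, had 27.8 and 133 TPM (log2 ratio 2.22). Ank, Git1, Smurf1 and Tbc1d2b had the upstream end in MR, and that of Git1 lay in a gene on the opposite strand.

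The 5 members lowest in MR, leaving out gene models named by a clone, all had the upstream end in M. Igf1, insulin-like growth factor 1, had 147 TPM in M and 13.2 TPM in MR (log2 ratio -3.38), and both its ends were at annotated starts 808 bases apart that share the start codon. Cd36, a scavenger receptor for lipids, had a TPM of 513 and 49.0 (log2 ratio -3.36), with the M end in an intron of the annotated gene. Slc7a8, an amino acid transporter, had 236 and 29.5 TPM (log2 ratio -2.96), and Ccl4, a chemokine, had 255 and 34.6 TPM (log2 ratio -2.85). Slc28a2, a nucleoside transporter, had 113 and 15.0 TPM (log2 ratio -2.83) with ends 13941 bases apart. In coverage per aligned Gb the log2 ratio of these 5 genes was also below 0, from -3.77 for Igf1 to -0.66 for Ccl4, whose fall in TPM was thus much larger than that in coverage.

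Among the 60 genes with both ends at annotated starts, the log2 ratio was above 1 in 7 (11.7%) and below -1 in 9 (15.0%). The shares over all 6201 genes were 11.4% and 8.9%. The 7 are Slc29a1, Clec4a2, Tpm1, Ikbkg, Tango2, Pigq and Rgs10, with the upstream end in MR for all but Clec4a2 and Tango2. The 9 are Igf1, Hip1, Atp8b4, Lmo2, Fam20c, Serpinb9, Tbxas1, Sesn1 and Tmem176b. Of these, Hip1, Atp8b4, Fam20c, Tbxas1 and Sesn1 had the upstream end in MR and the others in M. Fam20c turns with the column, with a log2 ratio of -1.49 in TPM and 1.14 in coverage per aligned Gb, and that of Tmem176b is -0.88 in coverage. The values of Ppia, Rpl17, Rpl21, Rpl36a, Rps27a, Clec4a2 and Serpinb9 are uncertain, since these members have close gene copies to which reads can be split.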

How the data were processed

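Per the labels and methods, total RNA libraries (NEBNext Ultra) were trimmed with Trim Galore, aligned to mm10 with HISAT2 and assembled per library with StringTie by the authors. The deposited tables list each row's coverage (a signal), FPKM and TPM. Over assembled rows TPM sums to 1000000, but named entries add to it, so that the deposited TPM column was handled as a score. The study's annotation, vM27, has other coordinates, and GENCODE vM21 (mm10) was used here.

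Each assembled row was given to the protein-coding gene with most exon bases in it on its strand. Of 19422 rows in M and 19922 in MR, 13871 and 14682 were given. 9082 genes had 1 row in each library, and 6201 of these a TPM of at least 10 in both. Rows without strand (4.34% and 4.31%) were not used. Aligned Gb were read from the ratio of coverage to FPKM. Log2 ratios used a pseudocount of 1. A start counted as matched within 100 bases. No genome sequence was used, so that sequence came from RefSeq promoter windows (GRCm38.p6) whose start lay within 100 bases of an end, in place of windows at the ends themselves. Members, gene lists and settings were chosen with earlier results of these data known. Named genes are the 20 members with both ends at annotated starts and the highest lower TPM, and, without gene models named by a clone, the 5 highest and 5 lowest ratios, the 5 largest distances and the 3 nearest to 500 bases on either side, and listed members, and some of these are not reported here. The steps were tested on simulated rows and run with Python 3.11.15, pandas 2.3.3, scipy 1.17.1 and numpy 2.4.6.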

Additional observations from a re-analysis of the deposited data

How the results depend on the processing

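Of 88 values recomputed under alternatives, 65 kept within the limits set for them, 23 moved and 0 reversed. The limits were wide. Genes with both ends at annotated starts, 60 in the main setting, were 43 within 50 bases and 83 within 200 bases. With starts of protein-coding transcripts only they were 50. Members past a log2 ratio of 1 in size, 88 in the main setting, were 82 in FPKM and 116 in coverage per aligned Gb. At 1000 bases or more, 199 genes were members, 86 of them upstream in MR, 38 with both ends and 198 ends at annotated starts. At 200 bases or more these were 581, 307, 138 and 624, with 149 past a log2 ratio of 1 in size and 435 with 3′ ends within 100 bases of each other. At a TPM of at least 1 they were 702, 339, 100, 642, 231 and 380, and at 30 they were 157, 72, 31, 155, 41 and 118. The counts past a log2 ratio of 1 under these columns and cuts have no share over all genes beside them. Nothing about the members is therefore read from how these counts change. The median log2 ratio was -0.12 under median-of-ratios scaling. Alternatives added after seeing the data (another row over the upstream end, and start codons within 50 or 200 bases) left 294 members and 12 or 23 genes with different start codons, beside 305 and 17. With 1 library per condition no library could be left out. No paired analysis was possible because each condition has 1 library and no test was made. Depth is known only as aligned bases, which limits the certainty of each end in genes of low TPM.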

Other observations

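The listed TPM and the listed coverage per aligned Gb of a row differed in direction between M and MR in 57 of the 305 members (18.7%), in 8 of the 60 with both ends at annotated starts, and in 10.5% of the genes that did not shift. Fam20c, a kinase of secreted proteins, had a log2 ratio of MR to M of -1.49 in TPM, while its coverage was 20.1 in M and 39.8 in MR. Sp140 had a TPM of 145 and 60.7 and a coverage of 16.5 and 73.1. Asap1, an Arf regulator of podosomes, had 28.4 TPM in M and 22.1 TPM in MR, a coverage of 6.72 and 27.3, and ends 32930 bases apart at annotated starts. For these genes the direction of the gene's level depends on which listed column is read.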
